A study of Homo sapiens with 6 samples.

Results

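DNA methylation writers and erasers are the enzymes that place 5-methylcytosine on DNA, the proteins that carry the mark through replication and the enzymes that remove it. The set held 9 genes chosen by name among the 57861 genes with a usable row in each table: DNMT1, DNMT3A, DNMT3B, UHRF1, UHRF2, TET1, TET2, TET3 and TDG. All 9 were found, and 8 of them were among the 15803 genes at 1 FPKM or more in at least 3 libraries, the limit for testing. FPKM counts fragments scaled to transcript length and to the size of the library, so levels of different genes can be set side by side. TET1 stayed below 1 FPKM in every library and was described without a place in the main test.

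The libraries came from MOLP-8, a human multiple myeloma line, transduced with the lentiviral vector lentiCRISPRv2, which carries Cas9 and a puromycin resistance gene. Controls carried a scrambled guide and the other cells carried a guide RNA against LIN28B, here called LIN28B KO as in the series design, although the library titles say KD. Both groups were selected in puromycin at 1 ug/mL, and each had 3 libraries of total RNA. The labels do not say whether these came from separate cultures or from a clone or a pool, so p-values measure the spread between libraries, which may be technical.

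DNMT1 copies methylation onto the new strand after replication, and UHRF1 recruits it by reading hemimethylated CpG and ubiquitinating histone H3. DNMT3A and DNMT3B methylate DNA de novo, while TET1, TET2 and TET3 oxidise 5-methylcytosine and TDG excises the further oxidised bases so that repair restores cytosine. Myeloma cells are known for loss of methylation over much of the genome, and DNMT3A and TET2 for their mutations in myeloid blood cancers. LIN28B binds RNA and keeps let-7 microRNAs from maturing, and let-7 represses transcripts through short sites in the 3′ untranslated region.

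The LIN28B transcript checked the labels. Control libraries held it at 23.3, 24.3 and 25.5 FPKM, and LIN28B KO libraries at 8.41, 8.17 and 5.84 FPKM, a log2 fold change of -1.66 with an SE of 0.17 (limma, adjusted p = 0.0207). The plasma cell markers SDC1, CD38, TNFRSF17, PRDM1, IRF4 and XBP1 were present in every library, from 63.4 FPKM for PRDM1 to 1049 FPKM for XBP1, and the B and T cell genes MS4A1 and CD3D were at 0 in all 6. LIN28B KO library 3 stood apart: 17676 genes reached 1 FPKM there against 15356 to 15932 in the other libraries, 30.4% of 401 olfactory receptor genes were above 0 against 10.2% to 14.5%, and MALAT1 was 892 FPKM against 259 to 331. Relative to the control mean, its median gene lay at -0.08 on the log2 scale among genes at 1 to 5 FPKM in controls. It lay at -0.36 at 5 to 20 FPKM, -0.50 at 20 to 100 FPKM and -0.63 from 100 FPKM up. LIN28B KO libraries 1 and 2 shifted with level in the same order but less. They went from 0.07 and 0.06 in the lowest of the 4 bands to -0.12 and -0.10 in the highest. The part of LIN28B KO library 3 in each result was therefore measured by fitting the other 5 libraries and by cyclic loess scaling. That scaling levels the ratio of libraries at every expression level.

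DNMT3B and UHRF1 were the 2 genes of the set with the largest differences, at 59.4% and 60.3% of the control mean in LIN28B KO cells. DNMT3B fell in the 5 libraries without LIN28B KO library 3 (log2 fold change -0.58, SE 0.06, adjusted p = 0.0438), and UHRF1 differed as much but did not pass (log2 fold change -0.57, SE 0.10, adjusted p = 0.0759). With all 6 libraries none of the 8 tested genes passed an adjusted p of 0.05 in limma, where 0.0949% of all tested genes did (15 of 15803, with 2163 at an unadjusted p under 0.05). DNMT1, TET3, TDG, DNMT3A, UHRF2 and TET2 passed in none of the fits. Without LIN28B KO library 3, 0.417% of tested genes were called, and DNMT3B was the 1 of the 8 among them. In bulk RNA, fewer cells expressing a gene and less RNA per cell cannot be told apart.

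In the control libraries the order of mean levels was DNMT1 (116 ± 5.94 FPKM, SD, n = 3), UHRF2 (43.2 ± 7.24), DNMT3B (40.3 ± 0.910), TDG (31.0 ± 2.66), UHRF1 (11.7 ± 0.262), TET3 (5.40 ± 0.388), TET2 (3.79 ± 0.166), DNMT3A (1.19 ± 0.175) and TET1 (0.828 ± 0.0696). UHRF2 and DNMT3B overlapped in range, and every other pair of neighbours was separate. In the LIN28B KO libraries DNMT1 (94.5 ± 10.0 FPKM, SD, n = 3) stayed highest and UHRF2 (37.1 ± 5.57) second. DNMT3B (23.9 ± 4.92) there had the level of TDG (23.8 ± 5.16), with overlapping ranges. The ranges of TET3 (4.31 ± 0.695) and TET2 (3.75 ± 0.423) overlapped in those libraries, as did those of DNMT3A (0.914 ± 0.304) and TET1 (0.888 ± 0.0689). De novo methylation transcripts were thus almost all DNMT3B, with DNMT3A at 0.0225 to 0.0521 of its level across the 6 libraries.

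**Figure D1:**
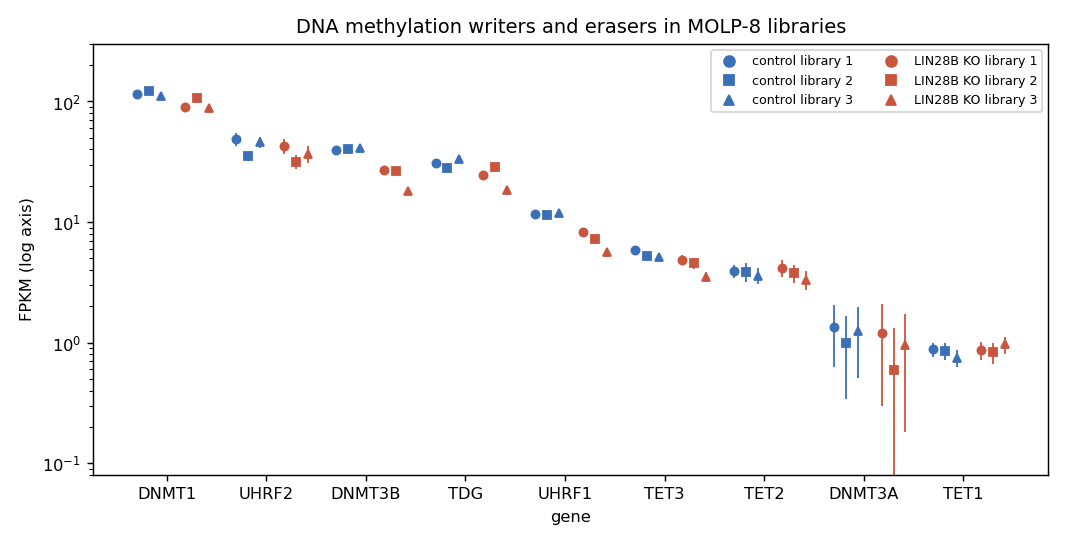
FPKM of the 9 genes on a log axis, with controls in blue and LIN28B KO in red and 1 symbol per library number; bars are the bounds deposited with each value, and the lower bar of DNMT3A in LIN28B KO library 2 runs off the axis because its bound is 0. DNMT1, DNMT3B, UHRF1 and TET3 have all 3 red points below all 3 blue points, and DNMT3A has by far the widest bounds.

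DNMT1, the maintenance methyltransferase (ENSG00000130816, GRCh37 chr19:10244021-10341962), measured 116, 122.5 and 111 FPKM in controls and 89.8, 106 and 87.7 FPKM in LIN28B KO libraries. Every LIN28B KO value lay below every control value, with library 2 closest. On the log2 scale the difference was -0.30 with an SE of 0.13 (adjusted p = 0.370), which became -0.25 (SE 0.09, adjusted p = 0.213) without LIN28B KO library 3. After cyclic loess scaling the 3 LIN28B KO libraries lay at -0.29, -0.06 and 0.15 on the log2 scale relative to the control mean, so library 3 was above the controls and the groups overlapped. The S1PR2 gene, at 3.70 to 5.17 FPKM, lies within the same interval, and the sources used here do not give the strand setting of the counting.

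UHRF1, the reader that brings DNMT1 to hemimethylated DNA (ENSG00000034063, chr19:4903092-4962165), measured 11.5, 11.5 and 11.99 FPKM in controls. The LIN28B KO libraries measured 8.30, 7.19 and 5.64 FPKM. The groups did not overlap, and the controls were far tighter than the LIN28B KO libraries, of which library 3 was lowest. The log2 fold change over 6 libraries came to -0.71 (SE 0.16, unadjusted p = 0.00333, adjusted p = 0.252), a level 1.63-fold lower. After cyclic loess scaling the LIN28B KO libraries lay at -0.46, -0.65 and -0.64 relative to the control mean, so the distance was of like size in all 3. UHRF1 stayed lower in all 14 alternatives that tested it, between -0.83 and -0.55, with adjusted p from 0.0622 to 0.670, none past the threshold.

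UHRF2, the paralog of UHRF1 (ENSG00000147854, chr9:6413151-6507054), measured 48.7, 35.03 and 46.02 FPKM in controls and 42.8, 31.7 and 36.9 FPKM in LIN28B KO libraries. The groups overlapped, with control library 2 below LIN28B KO libraries 1 and 3. The log2 difference of -0.21 had an SE of 0.18 (adjusted p = 0.562) and was -0.01 after cyclic loess scaling. Within a library the UHRF1 level was 0.237, 0.329 and 0.260 of the UHRF2 level in controls and 0.194, 0.227 and 0.153 of it in LIN28B KO cells. This ratio was lower in each LIN28B KO library than in any control (exact two-sided permutation p = 0.1, the smallest that 3 against 3 allows, and 0.2 after Benjamini-Hochberg adjustment over the 6 ratios computed).

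Start-site windows of DNMT1 and UHRF1 that held E2F words, which replication genes often carry there, are shown. E2F factors drive genes of the G1 to S transition, and 4 words were searched on both strands, TTTCCCGC, TTTCGCGC, TTTGCCGC and TTTGGCGC (the forms of TTTCGCGC on the 2 strands can overlap). In RefSeq windows of the GRCh38.p14 build, from 250 bases before to 50 after each start, 3 of the 20 windows of the set held a word, in 2 of its 9 genes. Each of the lines below gives 60 bases 5′ to 3′ on the strand of the gene, with the word in capitals.
UHRF1, first window, plus strand, chr19:4909441-4909500: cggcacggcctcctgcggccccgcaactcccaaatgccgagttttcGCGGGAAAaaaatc
UHRF1, second window, plus strand, chr19:4909938-4909997: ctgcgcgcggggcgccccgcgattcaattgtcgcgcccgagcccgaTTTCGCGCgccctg
DNMT1, minus strand, chr19:10194942-10195001: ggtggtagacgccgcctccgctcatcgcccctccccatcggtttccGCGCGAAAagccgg
The words begin at -14 and -160 from the start site in the UHRF1 windows and at -2 in the DNMT1 window. Such words occurred in 3.31% of all 35116 windows and in 5.05% of the 13276 windows of tested genes. In a list of replication fork genes, 10 of the 24 windows (41.7%) held one. Counted by gene, 6.87% of the tested genes with a window held a word, and 52.6% of the fork genes with a window. These are not the first starts of the genes as GENCODE 29 draws them: the start of the DNMT1 window lies 36333 bases inside its gene, those of the UHRF1 windows shown 6421 and 7064 bases inside, and that of the single DNMT3B window, which held no word, 17467 bases inside. A match is a description of letters, and no factor binding was measured.

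DNMT3B, a de novo methyltransferase (ENSG00000088305, chr20:31350191-31397162), measured 39.5, 40.1 and 41.3 FPKM in controls. The LIN28B KO libraries measured 27.1, 26.4 and 18.2 FPKM. Controls were tightly grouped, LIN28B KO libraries 1 and 2 were close to each other, and library 3 was lowest. Over 6 libraries the log2 fold change came to -0.76 (SE 0.17, unadjusted p = 0.00302, adjusted p = 0.246), a level 1.70-fold lower. Without LIN28B KO library 3 it was smaller and more precise, the -0.58 given above, a 1.496-fold lower level in which 0.267% of all tested genes were called lower. Cyclic loess scaling of all 6 libraries gave -0.57 (adjusted p = 0.0317), where 0.342% of genes were called lower, and the LIN28B KO libraries then lay at -0.52, -0.55 and -0.66 relative to the control mean. The distance was therefore present in each of the 3 libraries under that scaling. DNMT3B was also called lower with array weights, with 0.652% of all genes, and in the 5 libraries after cyclic loess scaling, with 0.235% over all tested genes and 1.17% over protein-coding genes alone. In 10 of the 16 alternatives it was not called, with limma adjusted p up to 0.67.

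DNMT3A, the other de novo enzyme (ENSG00000119772, chr2:25455845-25565459), measured 1.34, 0.999 and 1.25 FPKM in controls and 1.20, 0.594 and 0.951 FPKM in LIN28B KO libraries. The groups overlapped. Read as counting error alone, the width of its bounds would correspond to 3 to 14 fragments per library, against 1502 to 2647 for DNMT3B. These are measures of bound width and not counts of reads. The log2 difference of -0.28 was about the size of its SE of 0.27 (adjusted p = 0.606). The ratio of DNMT3A to DNMT3B was 0.0338, 0.0249 and 0.0302 in controls and 0.0443, 0.0225 and 0.0521 in LIN28B KO cells, with overlapping groups (exact two-sided permutation p = 0.4). The log2 difference of this ratio, 0.34, ran from 0.10 without LIN28B KO library 3 to 0.71 without LIN28B KO library 2. Against the sum of both de novo enzymes, DNMT1 stood at 2.84, 2.98 and 2.60 in controls and 3.18, 3.92 and 4.57 in LIN28B KO cells. DNMT1 was thus higher relative to the de novo enzymes in each LIN28B KO library than in any control (exact two-sided permutation p = 0.1, adjusted p = 0.2).

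TET1, a dioxygenase of 5-methylcytosine (ENSG00000138336, chr10:70320413-70454239), measured 0.878, 0.857 and 0.748 FPKM in controls and 0.869, 0.831 and 0.965 FPKM in LIN28B KO libraries. The groups overlapped, and with no filter on low values the log2 fold change was 0.06 (adjusted p = 0.899). TET2, its paralog without the CXXC domain (ENSG00000168769, chr4:106067032-106200973), measured 3.89, 3.88 and 3.60 FPKM in controls and 4.17, 3.75 and 3.33 FPKM in LIN28B KO libraries. Its groups overlapped too. The log2 difference of -0.02 had an SE of 0.16 (adjusted p = 0.964) and turned to 0.06 without LIN28B KO library 3, so no direction can be given. TET2-AS1 overlaps TET2 and was highest in LIN28B KO library 3, at 2.85 FPKM against 0.226 to 1.09 in the others.

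TET3, the third dioxygenase (ENSG00000187605, chr2:74229840-74335303), measured 5.84, 5.23 and 5.11 FPKM in controls and 4.85, 4.56 and 3.53 FPKM in LIN28B KO libraries. Its groups did not overlap, but control library 3 and LIN28B KO library 1 lay close, within each other's deposited bounds. The difference of -0.30 on the log2 scale had an SE of 0.17 (adjusted p = 0.427) and became -0.18 (SE 0.12, adjusted p = 0.446) without LIN28B KO library 3. TDG, the glycosylase that removes oxidised methylcytosine (ENSG00000139372, chr12:104359582-104382652), measured 31.0, 28.3 and 33.6 FPKM in controls and 24.5, 28.6 and 18.4 FPKM in LIN28B KO libraries. LIN28B KO library 2 lay above control library 2, so the groups overlapped, and the log2 difference of -0.39 had an SE of 0.18 (adjusted p = 0.384). Without LIN28B KO library 3 that of TDG was -0.22 (SE 0.11, adjusted p = 0.337).

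**Figure D2:**
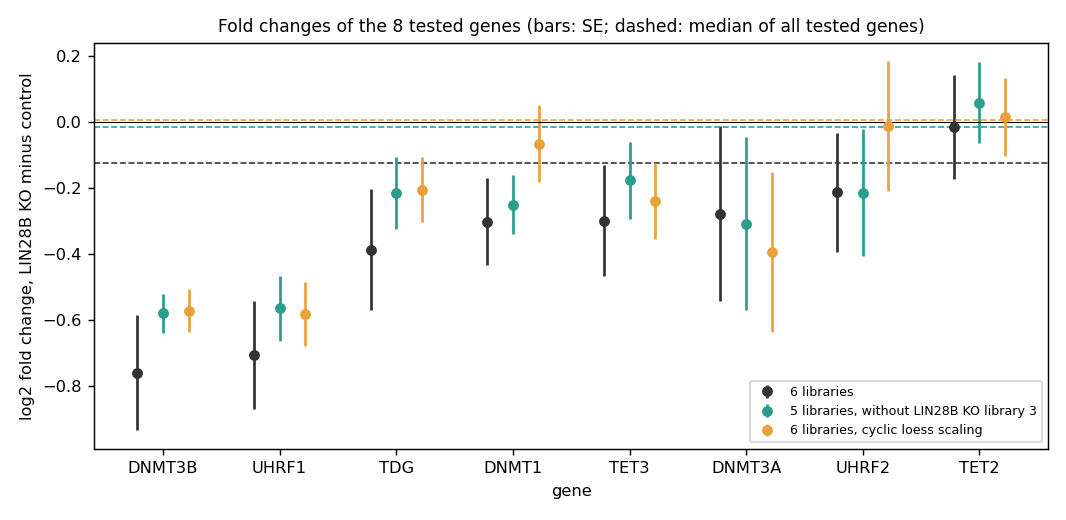
Log2 fold change of the 8 tested genes, LIN28B KO minus control, with bars for the SE, in 3 fits (6 libraries, 5 libraries without LIN28B KO library 3, 6 libraries after cyclic loess scaling); dashed lines are the median of all tested genes in the fit of that colour. DNMT3B and UHRF1 lie lowest in all 3 fits, at or below -0.57, while DNMT1 and UHRF2 move to near 0 after cyclic loess scaling.

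Because LIN28B blocks let-7, the let-7 site was sought in the 3′ untranslated regions of the set. The family members are shown for their common seed, bases 2 to 8, in capitals, with 3 of the 9 mature sequences of RefSeq that share it.
hsa-let-7a-5p: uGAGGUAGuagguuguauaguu
hsa-let-7g-5p: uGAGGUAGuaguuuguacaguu
hsa-miR-98-5p: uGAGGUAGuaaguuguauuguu
The matching site CTACCTC was present once in UHRF2 and once in TET3, over all protein-coding transcripts of GENCODE 29, and in none of the other 7 genes. Sites are given with the 20 bases before them and the base after, the site in capitals.
UHRF2, bases 279 to 285 of 875: agttatgatttattttgcaaCTACCTCa
TET3, bases 2791 to 2797 of 6000: ttgtacactacatgtctaacCTACCTCa
Among 10879 tested genes with a 3′ untranslated region, 12.2% held the site, and LIN28B itself held 4. Neither gene with a site passed the test, with log2 fold changes of -0.21 for UHRF2 and -0.30 for TET3, and DNMT3B and UHRF1 held none. Only the exact word CTACCTC was searched, so shorter sites and sites outside the 3′ untranslated region were not counted. No let-7 microRNA was measured in these libraries of long RNA.

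Of the 8 tested genes, 4 had all LIN28B KO values below all control values (DNMT1, DNMT3B, UHRF1 and TET3), and none had them above. Over all tested genes 20.1% were separate in the lower direction and 7.61% in the higher one. At an unadjusted p under 0.05, 2 of the 8 were lower, against 8.73% of all tested genes. The 8 had a median of -0.30 on the log2 scale, where that of all genes in the test was -0.13, and after cyclic loess scaling the medians were -0.22 and 0.00. Nothing particular to the set is read from these counts.

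Replication fork genes, which load and run the MCM helicase, DNA polymerase alpha and the clamp PCNA, were the listed group nearest to DNMT3B and UHRF1 in size. All 24 had a negative log2 fold change (median -0.60). Of these, 20 were separate in the lower direction, where 20.1% of all tested genes were, and none in the higher one. Beside 8.73% of all tested genes, 20 of the 24 were lower at an unadjusted p under 0.05 in limma. Their median was -0.48 without LIN28B KO library 3 and -0.41 after cyclic loess scaling, beside -0.02 and 0.00 for all tested genes. None passed over 6 libraries in limma. After cyclic loess scaling of all 6, 2 of the fork genes fell, against 0.342% of all tested genes called lower. In the 5 libraries without LIN28B KO library 3, 1 fell, against 0.267%. After cyclic loess scaling of those 5, 0 fell, against 0.235%. FEN1, the flap nuclease of Okazaki fragments, fell without LIN28B KO library 3 (log2 fold change -0.53, adjusted p = 0.0438), from 57.5, 60.2 and 59.3 FPKM to 40.3 and 41.2 FPKM. In a fit of those 5 libraries restricted to 11308 protein-coding genes, 15 of the 24 fell, against 3.02% of all genes in it, and DNMT3B fell too (adjusted p = 0.0226). Cyclic loess scaling of that fit left 5 of the 24, against 1.17% of all genes. UHRF1 was not in that fit, since its gene identifier has no match in GENCODE 29.

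The helicase subunits MCM2 and MCM4 and the fork proteins MCM10 and GINS2 show the range of this list. MCM2 measured 44.7, 39.7 and 46.3 FPKM in controls and 25.6, 29.01 and 19.9 FPKM in LIN28B KO libraries, and the groups were far apart. GINS2 and MCM10 were also lower in each LIN28B KO library, with log2 fold changes of -0.81 and -0.89 over 6 libraries (adjusted p = 0.226 for each). MCM4, at 217 to 234 FPKM in controls, was at 142 to 177 FPKM. RFC1, the large subunit of the clamp loader, differed least (log2 fold change -0.19, adjusted p = 0.518, and 0.06 after cyclic loess scaling).

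Per library, the median fork gene stood at 45.9, 45.8 and 44.3 FPKM in controls and 35.1, 30.7 and 27.0 FPKM in LIN28B KO cells. A shift that changes with level stays, but a single scaling factor of each library cancels on division by the median fork gene. UHRF1 was 0.252, 0.251 and 0.271 of it in controls and 0.237, 0.234 and 0.209 in LIN28B KO cells, lower in each (log2 difference -0.19, exact two-sided permutation p = 0.1, adjusted p = 0.2). DNMT3B, a ratio added after its values were seen, was 0.861, 0.875 and 0.933 in controls and 0.771, 0.862 and 0.676 in LIN28B KO cells, with LIN28B KO library 2 inside the control range (log2 difference -0.21, exact two-sided permutation p = 0.2). DNMT1 went the other way, from 2.53, 2.67 and 2.50 to 2.56, 3.45 and 3.25 (log2 difference 0.25, exact two-sided permutation p = 0.2). Without LIN28B KO library 3 the DNMT3B difference was -0.13, and that of DNMT1 was 0.38 without LIN28B KO library 1 and 0.17 without LIN28B KO library 2. UHRF1 and DNMT3B lay closer to control when read against the fork genes than as levels. That follows by arithmetic for any gene lower by about as much as the fork median, so nothing further is read from it. Whether the levels of the fork genes bear on those of UHRF1 and DNMT3B was not tested. In LIN28B KO library 3 the median shift was -0.36 at 5 to 20 FPKM, the control band of UHRF1. It was -0.50 at 20 to 100 FPKM, that of DNMT3B and the fork median, and -0.63 from 100 FPKM up, that of DNMT1. The ratios of UHRF1 to UHRF2 and of DNMT1 to the de novo enzymes also set genes of unlike level side by side. The part of this shift in the ratios was not tested.

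**Figure D3:**
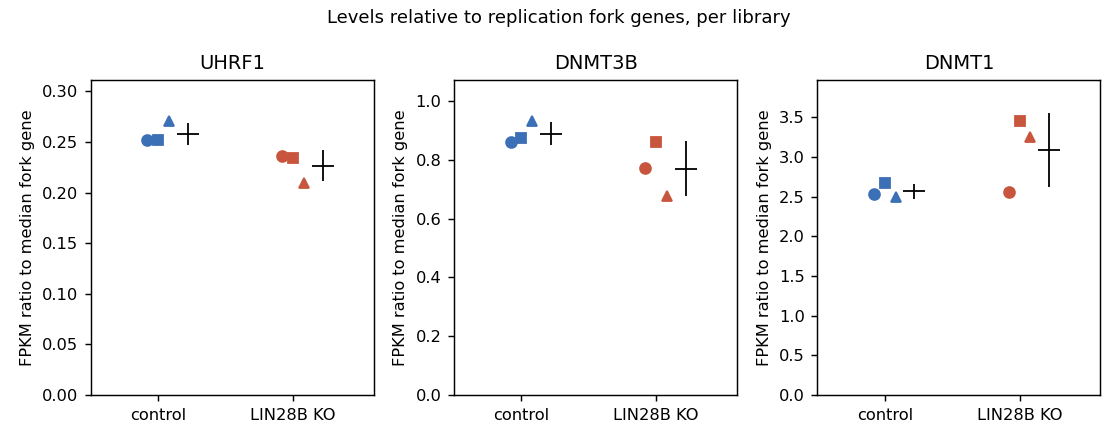
Ratio of the FPKM of UHRF1, DNMT3B and DNMT1 to the FPKM of the median of 24 replication fork genes in the same library, with controls in blue, LIN28B KO in red, 1 symbol per library number and black bars for the mean ± SD (n = 3). The UHRF1 ratio is lower in each LIN28B KO library, the DNMT3B ratio overlaps the controls in library 2, and the DNMT1 ratio is higher in libraries 2 and 3.

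Partners of maintenance methylation, 19 genes for the chromatin remodeller HELLS, the clamp, and the deubiquitinase and heterochromatin proteins that act with DNMT1 and UHRF1, had 12 genes separate in the lower direction and none in the higher one, beside 20.1% and 7.61% of all tested genes. Their median was -0.37, and it was -0.28 without LIN28B KO library 3 and -0.17 after cyclic loess scaling. None passed over 6 libraries. KIAA0101, the PCNA-binding factor PAF15 that UHRF1 ubiquitinates to recruit DNMT1, fell without LIN28B KO library 3 (log2 fold change -0.56, adjusted p = 0.0482). Its level was 99.7, 95.0 and 102.8 FPKM in controls and 69.0, 64.9 and 45.1 FPKM in LIN28B KO libraries. CDCA7, which activates HELLS, was at 1.79 to 2.16 FPKM in controls and 0.741 to 1.16 FPKM in LIN28B KO cells (log2 fold change -0.84, adjusted p = 0.277). CBX5, the heterochromatin protein HP1 alpha, and TRIM28, a corepressor of zinc finger proteins, were lower in each LIN28B KO library (log2 fold changes -0.45 and -0.44), while USP7, the deubiquitinase that stabilises DNMT1 and UHRF1, overlapped (log2 fold change -0.26). TRIM28 stood at -0.28 and USP7 at -0.02 without LIN28B KO library 3.

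Partners of de novo methylation, 7 tested genes, had 3 separate in the lower direction, beside 20.1% of all tested genes, and none called in either fit. Their median of -0.22 over 6 libraries was -0.03 without LIN28B KO library 3 and -0.05 after cyclic loess scaling. WHSC1, the methyltransferase NSD2 that deposits H3K36me2, measured 60.3, 59.8 and 58.7 FPKM in controls and 47.2, 52.9 and 42.9 FPKM in LIN28B KO libraries, with no overlap (log2 fold change -0.32, adjusted p = 0.354). EZH2, the H3K27 methyltransferase of PRC2, and SETD2, the H3K36me3 writer, had log2 fold changes of -0.32 and -0.18, the latter -0.12 without LIN28B KO library 3. Among readers of methyl-CpG, 9 tested genes, 1 was separate in the lower direction: MBD3, a subunit of the NuRD complex, at 32.9 to 34.7 FPKM in controls and 20.5 to 28.95 FPKM in LIN28B KO cells (log2 fold change -0.45, adjusted p = 0.320). MBD1, MBD2 and MBD4 overlapped. The readers' median was -0.14, next to -0.13 for all tested genes, and it was -0.05 without LIN28B KO library 3 and 0.04 after cyclic loess scaling.

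Excision repair that follows TDG, 13 tested genes, had 7 separate in the lower direction and 1 in the higher one, beside 20.1% and 7.61% of all tested genes, and none passed in either fit. Their median of -0.35 over 6 libraries was -0.17 without LIN28B KO library 3 and -0.15 after cyclic loess scaling. LIG3, the ligase that seals the repaired strand, measured 48.1, 56.1 and 42.1 FPKM in controls and 29.2, 31.0 and 34.0 FPKM in LIN28B KO libraries (log2 fold change -0.62, adjusted p = 0.253). POLB, the repair polymerase, was the one on the higher side, at 15.8 to 16.8 FPKM in controls and 20.7 to 29.3 FPKM in LIN28B KO cells (log2 fold change 0.52, adjusted p = 0.298). UNG, which removes uracil, and APEX1, the abasic site nuclease, were lower in each LIN28B KO library (log2 fold changes -0.61 and -0.40), and PARP1, the sensor of nicks, overlapped (-0.30). These values were -0.40 for UNG, -0.17 for APEX1 and -0.09 for PARP1 without LIN28B KO library 3.

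Genes that bind TET proteins or set their cosubstrates, 12 tested, had 3 separate in the lower direction and 1 in the higher one, shares close to the 20.1% and 7.61% of all tested genes. Their median was -0.18, and it was -0.12 without LIN28B KO library 3 and 0.00 after cyclic loess scaling. CXXC4, a CpG-binding partner of TET2, was the higher one, at 3.43, 3.91 and 3.65 FPKM in controls and 4.92, 7.21 and 5.99 FPKM in LIN28B KO libraries (log2 fold change 0.64, adjusted p = 0.283). Its relative CXXC5 was lower in each LIN28B KO library (log2 fold change -0.36), as was FH, the fumarase that clears an inhibitor of TET enzymes (-0.36). OGT, the glycosyltransferase that binds TET2 and TET3, and SDHC, a subunit of succinate dehydrogenase, overlapped between groups (0.19 and -0.18). Without LIN28B KO library 3 the values of FH, OGT and SDHC were -0.22, 0.29 and -0.01, and SDHC was at 0.07 after cyclic loess scaling.

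The methyl donor cycle, which makes S-adenosylmethionine and the folates that feed it, had 9 of 13 tested genes separate in the lower direction, beside 20.1% of all tested genes. Their median was -0.28, and it was -0.20 without LIN28B KO library 3 and -0.11 after cyclic loess scaling. SHMT2, the mitochondrial serine hydroxymethyltransferase, was lower in each LIN28B KO library (log2 fold change -0.51, adjusted p = 0.297). MAT2A, which makes S-adenosylmethionine, was lower in each (log2 fold change -0.37), and MTRR overlapped (-0.03). MAT2A stood at -0.21 and MTRR at 0.09 without LIN28B KO library 3. Of the 104 other pathway genes tested over 6 libraries, none passed. Of the 103 tested without LIN28B KO library 3, 3 fell, KIAA0101 and FEN1 among them, beside 0.267% of all tested genes.

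**Figure D4:**
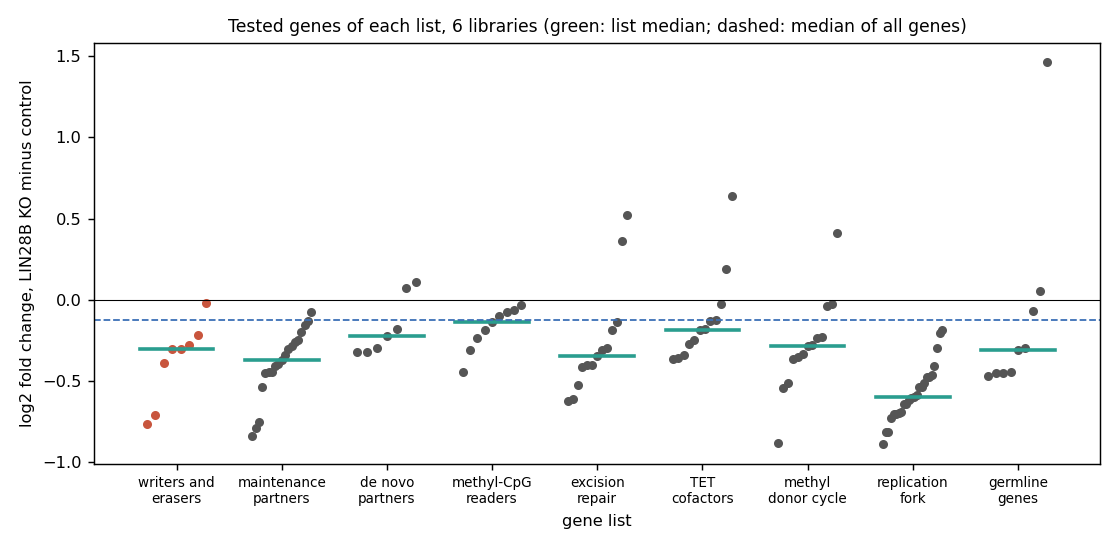
Log2 fold change over 6 libraries, LIN28B KO minus control, of every tested gene in the set and in 8 lists of related genes; each point is a gene, green lines are list medians and the dashed line is the median of all 15803 tested genes, -0.13. Replication fork genes lie lowest, with a median of -0.60, and the readers of methyl-CpG lie at the level of all genes. The highest germline point is BRDT, which entered the test only through its LIN28B KO values.

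Germline genes that DNA methylation keeps silent in most body cells were examined as a readout, 24 genes of which 9 were tested. None was called in either fit, and genes of the list under the limit for testing were not covered by these fits. Of the 9, 4 were separate in the lower direction and 1, BRDT, in the higher one, beside 20.1% and 7.61% of all tested genes. Their median was -0.31, and it was -0.18 without LIN28B KO library 3, where 8 were tested, and -0.14 after cyclic loess scaling. BRDT, a testis bromodomain protein, measured 0.503, 0.837 and 0.870 FPKM in controls and 1.70, 2.06 and 6.37 FPKM in LIN28B KO libraries, the last value being that of library 3. It entered the test only through its LIN28B KO values, so that it had to be higher there, and no test is read from it. SSX1 and PAGE1, cancer-testis genes on the X chromosome, were lower in each LIN28B KO library (log2 fold changes -0.47 and -0.45), as was CTAG2 (-0.44). SSX1, PAGE1 and CTAG2 stood at -0.35, -0.25 and -0.22 without LIN28B KO library 3. The levels of SSX1, PAGE1 and CTAG2 in controls were 81.8 to 135 FPKM, so these genes were expressed in control cells.

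The genes whose profile over the 6 libraries lay nearest to that of each writer were sought among 10761 genes, with likeness as the root mean square difference of centred log2 levels. For DNMT3B they were MTFP1, a mitochondrial fission protein, TEX19, a germ cell gene, and MYBL2, a transcription factor of the cell cycle, at distances of 0.029 to 0.032. MYBL2 measured 85.1, 84.6 and 86.0 FPKM in controls and 57.3, 55.2 and 36.8 FPKM in LIN28B KO libraries, with LIN28B KO library 3 lowest, as for DNMT3B. For UHRF1 they were KIAA1524, KIF18B and CDCA4, at 0.036 to 0.046. EZH2 was among the 3 nearest to DNMT1, at 0.040, and NUP205, a nuclear pore protein, was nearest to TET3, at 0.022. These distances are descriptions over 6 libraries that share LIN28B KO library 3.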

How the data were processed

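Total RNA of MOLP-8 cells was sequenced in 3 control and 3 LIN28B KO libraries, grouped by their labels. The authors deposited FPKM per gene with lower and upper bounds, per the file headers. The submitters' processing notes name cutadapt, TopHat2, HTSeq and GRCh37, without versions or roles. Which program gave the FPKM, with what annotation and strand setting, is not given in the sources used here. Read totals were not used here. Read as counting error alone, bound widths would correspond to 4810582 to 8372795 fragments per library summed over genes. These are not read counts. In control library 1 the widths correspond to 1200 for DNMT1 at 116 FPKM and 1216 for UHRF1 at 11.5 FPKM. What else the bounds cover is not given in the sources used here. Of 57886 genes, 25 had a failed estimate and were left out.

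Genes at 1 FPKM or more in at least 3 libraries (15803) were tested with limma 3.58.1 in R 4.3.3, with an intensity trend, on log2(FPKM + 0.5), which understates changes of low genes. Called means a Benjamini-Hochberg adjusted p under 0.05 over all tested genes. The fit was tested on simulated data. The members and lists were chosen with earlier results of these data known. Named were LIN28B, all 9 members, and per list the 3 tested genes of smallest p, the 2 of highest control level and those called in either main fit (6 libraries, or without LIN28B KO library 3). Alternatives were other pseudocounts, no filter, cyclic loess, quantile normalization, array weights, a replicate block, each library left out, and 5 libraries with protein-coding genes only; the last with cyclic loess was chosen after seeing the data. Results of some genes named by this rule are not reported here.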

Additional observations from a re-analysis of the deposited data

How the results depend on the processing

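The 15 genes called over 6 libraries became 6 with no filter on low values, 111 with cyclic loess, 28 with quantile normalization, 170 with array weights, 72 with 5 libraries and cyclic loess, 463 with 5 libraries and protein-coding genes only, and 254 when those were scaled by cyclic loess, an alternative chosen after seeing the data. Leaving out each library gave 4 to 64, and 64 was without LIN28B KO library 3. Of the 9 genes, 1 (DNMT3B) was called with cyclic loess, with array weights, and in each of the 4 fits of 5 libraries without LIN28B KO library 3, and 0 in the other alternatives (0 to 1 with each library left out). Of the other pathway genes, 4 were called with cyclic loess, 1 with quantile normalization, 5 with array weights, 1 with 5 libraries and cyclic loess, 22 with protein-coding genes and 7 with those and cyclic loess (0 to 3 with each library left out). DNMT3B stayed lower in 16 alternatives, from -0.86 to -0.53. Its limma adjusted p there ran from 0.0226 to 0.67, the highest without control library 3. TET2 turned to 0.013 with cyclic loess, 0.049 with array weights, 0.015 with 5 libraries and cyclic loess, 0.057 with 5 libraries and protein-coding genes and 0.041 with those and cyclic loess. It ran from -0.087 to 0.057 with each library left out, and was above 0 without control library 1 (0.000575) and without LIN28B KO library 3. LIN28B stayed at -1.66 but with an adjusted p of 0.142 with no filter. It ran from -1.75 to -1.50 with each library left out, and lost its call (adjusted p 0.0675 to 0.185) except without LIN28B KO library 3. Same-numbered libraries had correlations of -0.02, 0.04 and -0.03 in their deviations from the group mean, so no pairing by number was seen. So few values, with LIN28B KO library 3 apart, cannot tell whether same-numbered libraries shared a culture or day. A replicate block called 13 genes, 0 of the set and 0 other pathway genes, with LIN28B at -1.66 (adjusted p = 0.0604). The causes were not tested. The 6 within-library ratios kept their direction with each library left out, but those of DNMT3A to DNMT3B (0.10 to 0.71) and of DNMT1 (0.17 to 0.38) and DNMT3B (-0.30 to -0.13) to the median fork gene moved by over 1.5 times. DNMT3A has the widest bounds of the set.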
